A study of Mus musculus with 8 samples.

Results

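The nuclear effectors of the Hippo pathway were examined as 8 genes, which were the coactivators *Yap1* and *Wwtr1* (the gene of TAZ), the DNA-binding factors *Tead1*, *Tead2*, *Tead3* and *Tead4*, and the cofactors *Vgll3* and *Vgll4*. They were taken by symbol from the deposited table, in which each of the 8 had 1 entry among 23467 genes, and all 8 passed the filter on low values that left 13421 genes for testing. RNA was sequenced from cultured hepatoblasts (iHBs), from cells differentiated from them to hepatocytes (iHPs) with 12.5 ng/ml oncostatin M for 5 days by the labels (the sources differ by 1 day), and from cells differentiated to biliary epithelial cells (BECs; the cultures are called iBECs) on Matrigel for 14 days. All cells came from E14.5 livers of B6;129 mixed mice and were first grown on collagen. The control cells were labelled wild type and gave 1 library in each of the 3 stages. The other cells were labelled Lats1-/-;Lats2f/fl;Alb-cre (L1L2_Alb) and gave 1 iHB, 2 iHP and 2 iBEC libraries. Cre was driven by the albumin promoter, so that cells without albumin expression in these cultures would keep *Lats2*, whereas the *Lats1* deletion is not cell-type specific by its label. Whether paired libraries of a condition are separate embryos or cultures is not in the labels, so the spread between them may be technical. The p-values of the fits rest on that spread. In the fit across stages they also rest on how far the genotype difference varied between stages, since each stage had 1 control.

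In the Hippo pathway, the kinases LATS1 and LATS2 phosphorylate YAP and TAZ, which are then held in the cytoplasm or degraded. Unphosphorylated YAP and TAZ enter the nucleus, where they do not bind DNA themselves but are brought to enhancers and promoters by the TEAD factors. VGLL proteins bind TEAD factors through a short motif of their own, and VGLL4 competes with YAP for them. In the liver the pathway is known for limiting organ size and for its role in the choice between hepatocyte and biliary fate. This regulation acts on proteins, and RNA levels do not show where YAP and TAZ were in the cell.

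Library sizes recovered from the deposited values were between 18436865 and 33229075 reads, and would take up any further scaling factor per library. Values are in RPKM, reads scaled to gene length and library size. *Lats1* and *Lats2* RNA was not lower in the libraries labelled L1L2_Alb in the fit across stages, with log2 differences of 0.44 and 0.90, and since the values do not separate the deleted exons they do not check the genotype. The label is therefore used as a label throughout. The paper separately reported reduced LATS1 and LATS2 expression in its cultured L1L2_Alb cells, which was not examined here. *Alb* was between 2485 and 6162 RPKM in the control libraries and between 524 and 5499 RPKM in those labelled L1L2_Alb. Markers of 6 cell types were summed in each library. The 8 macrophage and leukocyte markers reached 1453 to 2650 RPKM in the control libraries and 791 to 3212 RPKM in those labelled L1L2_Alb, and the 8 endothelial markers stayed at or under 24.3 RPKM. The 7 erythroid markers were at 1.79 to 109 RPKM. The 9 hepatocyte markers were at 14157 RPKM in control iHBs and 32418 RPKM in control iBEC, the highest of the 8 libraries, and the 8 biliary markers at 2608 and 23490 RPKM, of which the single gene *Spp1* gave 1706 and 23271 RPKM. The other 7 biliary markers summed to 902 RPKM in control iHB and 219 RPKM in control iBEC, and 6 of them were lower in control iBEC, with *Krt19* at 273 and 83.7 RPKM and *Krt7* at 400 and 62.3 RPKM. In the control, the biliary markers other than *Spp1* thus go against the iBEC label, and the name is used here as a label.

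The promoters of these genes were examined first, with a search for the core of the DNA element that TEAD factors bind, GGAATG, or CATTCC on the other strand. RefSeq promoters (GRCm38.p6) were held for 6 of the 8 genes, with no entry used for *Tead1* and *Tead4*, and the 250 bases before the annotated start were searched. The element was present in 7 of 9 promoters, against 12.6% of 32851 mouse promoters. These 7 belonged to 5 of 6 genes, for which no background share of genes was counted. The 9 promoters are not independent, since starts of 1 gene share bases, and the promoters of *Wwtr1* hold the same element. Those of 4 genes are printed 5′ to 3′ on the strand of the gene, with the element in capitals, namely *Wwtr1*, which was higher in all libraries labelled L1L2_Alb, its paralog *Yap1*, the cofactor *Vgll4*, and *Tead2*, which was lower in those libraries and in which these letters were not found. The regions are chr3:57575911-57576160 (minus strand) for *Wwtr1*, chr9:8004597-8004846 (minus strand) for *Yap1*, chr6:114969204-114969453 (minus strand) for *Vgll4* and chr7:45215542-45215791 (plus strand) for *Tead2*.
Wwtr1: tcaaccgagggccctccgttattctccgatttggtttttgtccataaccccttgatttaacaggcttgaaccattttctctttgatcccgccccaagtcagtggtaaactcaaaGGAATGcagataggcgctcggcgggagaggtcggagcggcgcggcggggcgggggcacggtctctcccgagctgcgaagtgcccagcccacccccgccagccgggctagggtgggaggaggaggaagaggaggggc
Yap1: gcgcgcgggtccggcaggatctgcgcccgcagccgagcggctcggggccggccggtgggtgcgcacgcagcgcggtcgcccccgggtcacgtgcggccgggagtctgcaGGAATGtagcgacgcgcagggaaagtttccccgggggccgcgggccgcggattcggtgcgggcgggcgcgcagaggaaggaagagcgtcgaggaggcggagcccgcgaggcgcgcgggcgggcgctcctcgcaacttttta
Vgll4: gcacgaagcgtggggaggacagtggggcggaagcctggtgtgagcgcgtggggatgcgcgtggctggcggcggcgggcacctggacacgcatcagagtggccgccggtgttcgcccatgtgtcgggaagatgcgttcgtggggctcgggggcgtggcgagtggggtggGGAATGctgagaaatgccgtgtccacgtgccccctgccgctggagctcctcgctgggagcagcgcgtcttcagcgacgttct
Tead2: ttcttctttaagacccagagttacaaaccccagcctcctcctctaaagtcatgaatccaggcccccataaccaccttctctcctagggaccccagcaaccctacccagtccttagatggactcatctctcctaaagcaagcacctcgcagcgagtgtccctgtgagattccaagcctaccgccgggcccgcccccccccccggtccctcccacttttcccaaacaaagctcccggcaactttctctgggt
The first base of the element lay at position -136 in *Wwtr1*, -141 in *Yap1* and -82 in *Vgll4*, counted from the start, with -1 the base just before it. *Vgll3* held 1 element at position -63. Of 3 annotated starts of *Tead3*, 1 promoter held 2 elements, 1 held 1 element and 1 held none. A match of letters is a description and not a site of binding, and no match says only that these letters are not in this window. Whether the element goes with the direction of a gene was not tested.

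Of the coactivators, *Wwtr1* passed the test for the genotype label and *Yap1* did not. *Yap1* was at 28.3 RPKM in control iHBs and 29.5 RPKM in the iHB library labelled L1L2_Alb. In iHPs the control had 26.8 RPKM and the labelled libraries 37.5 and 33.3 RPKM, and in iBECs at 23.9 RPKM against 24.4 and 24.6 RPKM. The labelled libraries thus lay above their control by a small margin in iHBs and iBECs and by a larger one in iHPs. Across stages the log2 difference was 0.17 with a 95% interval from -0.20 to 0.53 (limma on log2(RPKM + 1), adjusted p = 0.566, higher in 5 of 5 libraries), so that a change was not shown, and a rise of up to 0.53 remains within the interval. In these bulk libraries, fewer cells of a type and less RNA per cell cannot be told apart, here and below.

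*Wwtr1*, which codes for TAZ, rose in the labelled libraries. It was at 20.3 RPKM in control iHBs and 35.2 RPKM in the labelled iHB library. In iHPs it was at 16.6 RPKM against 28.2 and 23.2 RPKM, and in iBECs at 9.21 RPKM against 14.9 and 16.7 RPKM. Every labelled library was above the control of its stage, by 1.40 to 1.81-fold, although the groups overlapped when stages were pooled. The log2 difference across stages was 0.68 ± 0.162 (SE; limma, adjusted p = 0.0363, n = 3 control and 5 labelled libraries). This call was lost in 7 of the 14 alternative settings, which gave adjusted p-values between 0.0248 and 0.170.

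Relative to *Yap1*, the RNA of *Wwtr1* was higher in each labelled library than in its control. The ratio of *Wwtr1* to *Yap1* was 0.717 in control iHB and 1.19 in labelled iHB, 0.620 in control iHP and 0.752 and 0.696 in labelled iHPs, and 0.385 in control iBEC and 0.610 and 0.679 in labelled iBECs. Labelled iHB was the only library of the 8 in which *Wwtr1* exceeded *Yap1*. The log2 difference of the ratio was 0.57, with an exact two-sided permutation p of 0.0556 over the 18 arrangements within stages, which is the smallest p this design can give. The sum of both coactivators was 48.6 and 64.7 RPKM in control and labelled iHBs, 43.4, 65.6 and 56.5 RPKM in iHPs, and 33.2, 39.2 and 41.3 RPKM in iBECs. It too was higher in 5 of 5 labelled libraries, with a log2 difference of 0.39.

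**Figure D1:**
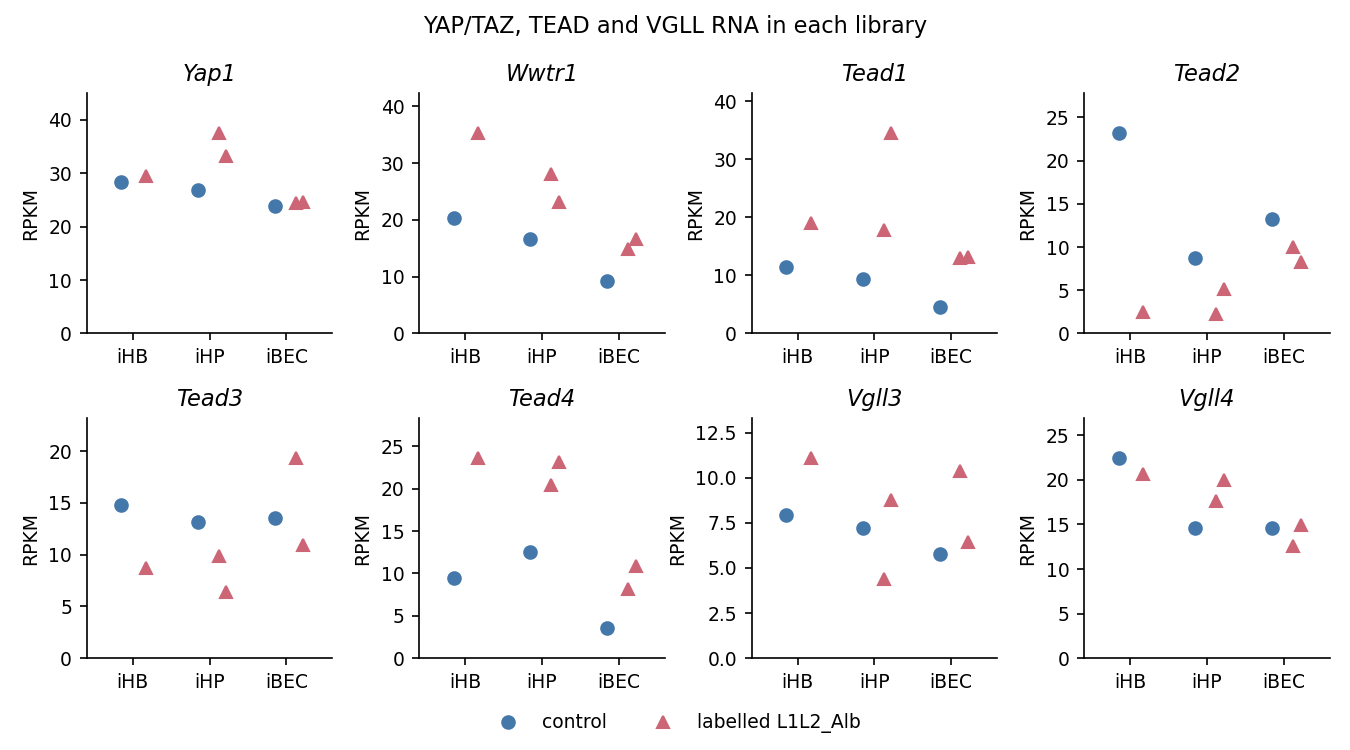
Level of each of the 8 effector genes in RPKM (y axis, from 0, with its own scale in each panel) in the 8 libraries by culture stage (x axis), where each point is 1 library, blue circles are controls and red triangles are libraries labelled L1L2_Alb. *Wwtr1*, *Tead1* and *Tead4* lie above the control in every stage and *Tead2* lies below it, while *Yap1* ranges only from 23.9 to 37.5 RPKM.

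The TEAD factors had no single direction. These 4 paralogs share the same kind of DNA-binding domain and bind YAP and TAZ through their other end. *Tead1* and *Tead4* rose in the labelled libraries, *Tead2* was lower in each of them without passing the threshold, and *Tead3* had no common direction.

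*Tead1* was at 11.5 RPKM in control iHBs and 19.0 RPKM in labelled iHB. In iHPs the control had 9.40 RPKM and the labelled libraries 17.9 and 34.4 RPKM, and in iBECs at 4.60 RPKM against 12.9 and 13.2 RPKM. With stages pooled, the lowest labelled library (12.9 RPKM) was above the highest control (11.5 RPKM). The share of all genes without such overlap was not counted. The replicates of labelled iHP stood apart from each other. The log2 difference was 1.15 ± 0.247 (SE; limma, adjusted p = 0.0276, higher in 5 of 5). Without L1L2_Alb iHP replicate 2, the highest library, it was 0.99 and kept the call, and over 14 settings the adjusted p lay between 0.0225 and 0.116, under 0.05 in 9.

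*Tead4* was at 9.44 RPKM in control iHB against 23.6 RPKM in labelled iHB. In iHPs the control was at 12.5 RPKM and the labelled libraries at 20.4 and 23.1 RPKM, and in iBECs the control was at 3.59 RPKM and the labelled libraries at 8.19 and 10.9 RPKM. Labelled libraries were 1.63 to 3.04-fold above the control of the stage. With a log2 difference of 1.04 ± 0.191 (SE; limma, adjusted p = 0.0153, higher in 5 of 5), it had the lowest adjusted p of the 8 genes, and it stayed under 0.05 in 11 of 14 settings, with the other 3 each leaving out a whole stage.

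*Tead2*, a TEAD factor known from early embryonic and neural tissue, showed the widest range of the 8 genes. It was at 23.1 RPKM in control iHBs and 2.52 RPKM in labelled iHB. In iHPs the control had 8.73 RPKM and the labelled libraries 2.26 and 5.10 RPKM, and in iBECs at 13.2 RPKM against 10.0 and 8.27 RPKM. Labelled iHB thus held 0.109 times the RNA of its control, labelled iHPs 0.258 and 0.584 times, and labelled iBECs 0.757 and 0.625 times. Its values are whole reads, from 88 to 1393 reads per library on a gene model of 2115 bases, so that the differences are not at the edge of detection. Across stages the log2 difference was -1.35 ± 0.398 (SE; limma, 95% interval from -2.26 to -0.43, adjusted p = 0.0717, lower in 5 of 5), which did not pass the threshold, nor did it under any of 14 settings (adjusted p from 0.055 to 0.245).

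**Figure D2:**
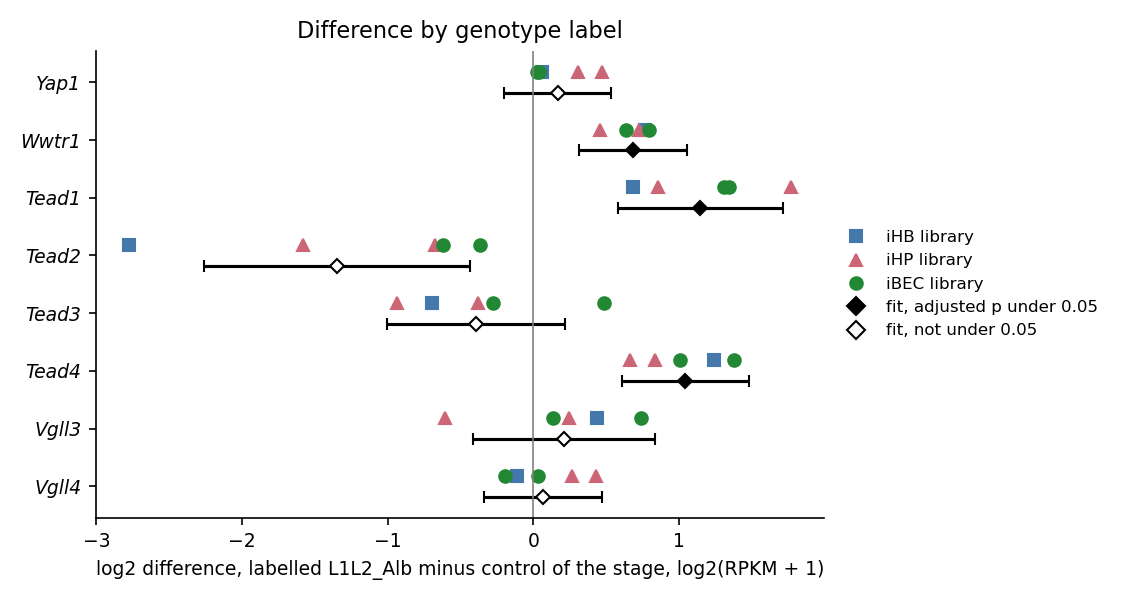
Log2 difference of each effector gene between libraries labelled L1L2_Alb and the control of their stage on log2(RPKM + 1) (x axis), with 1 coloured marker per library and, below it, the fitted difference with its 95% interval (diamond, filled where the adjusted p of limma was under 0.05). *Tead1*, *Tead4* and *Wwtr1* have filled diamonds to the right of 0, and the iHB library gives *Tead2* its lowest value, -2.78.

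The *Tead2* difference was largest in iHBs. Its test for a difference of the genotype effect between stages gave an unadjusted p of 0.0367 and an adjusted p of 0.824 (limma, moderated F), and the other 7 genes had an adjusted p of 1.00. Of all 13421 genes, 0 were called in that test, with 733 at an unadjusted p under 0.05, on 2 residual degrees of freedom.

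Mesenchymal markers were also lower in labelled iHBs and iHPs. The summed RNA of 12 mesenchymal and stellate cell markers was 4870 RPKM in control iHBs and 1674 RPKM in labelled iHB, 2969 RPKM in control iHP and 747 and 1209 RPKM in labelled iHPs, and 2701 RPKM in control iBEC and 3818 and 1723 RPKM in labelled iBECs. The collagen gene *Col1a1* alone was at 1467 and 606 RPKM in control and labelled iHBs, 1017, 288 and 483 RPKM in iHPs, and 1100, 1130 and 606 RPKM in iBECs. Of 11 markers tested 0 passed the threshold in limma, with a median log2 difference of -1.02, and none of the 12 was at 0 in all libraries. In iBECs, labelled replicate 1 held more marker RNA than its control but less *Tead2*. The part of mesenchymal cells in the *Tead2* result was not tested.

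**Figure D3:**
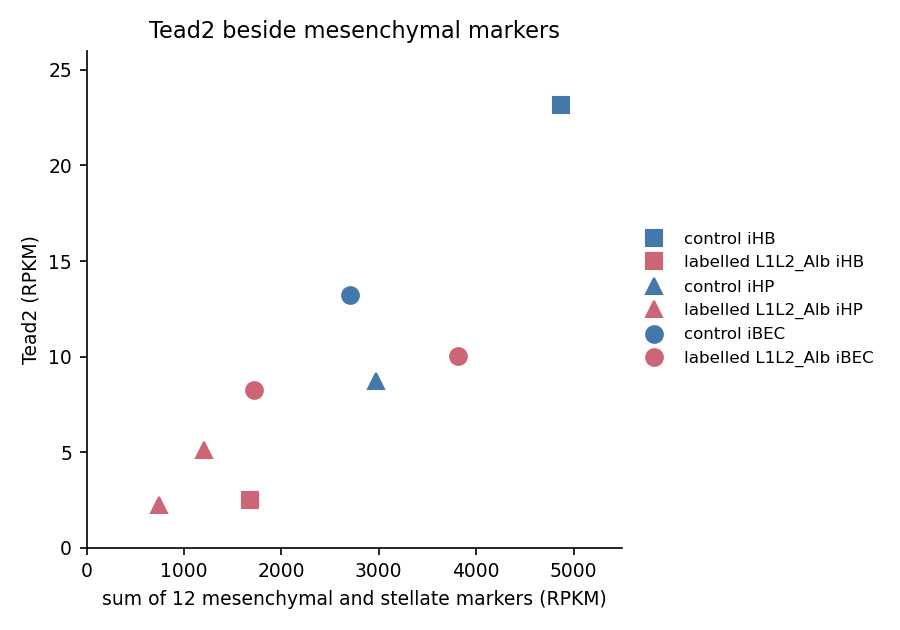
*Tead2* level (y axis, RPKM) against the summed level of 12 mesenchymal and stellate markers (x axis, RPKM) in the 8 libraries, with colour for the genotype label and shape for the stage. Control iHB is highest on both axes (4870 and 23.1 RPKM) and labelled iHP replicate 1 is lowest on both (747 and 2.26 RPKM).

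*Tead3* was at 14.8 RPKM in control iHBs and 8.73 RPKM in labelled iHB, at 13.2 RPKM in control iHP and 9.89 and 6.42 RPKM in labelled iHPs, and at 13.5 RPKM in control iBEC and 19.3 and 11.0 RPKM in labelled iBECs. It was lower than the control in 4 of 5 labelled libraries and higher in iBEC replicate 1. The log2 difference was -0.39 with a 95% interval from -1.01 to 0.22 (limma, adjusted p = 0.401).

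The make-up of TEAD RNA is described by shares, which were formed from genes whose directions are given above and so get no test. The 4 TEAD genes summed to 58.8 and 53.8 RPKM in control and labelled iHBs, 43.9, 50.4 and 69.1 RPKM in iHPs, and 35.0, 50.4 and 43.4 RPKM in iBECs, higher than the control in 4 of 5 labelled libraries. *Tead1* and *Tead4* together made up 35.5% of it in control iHB and 79.1% in labelled iHB, 50.0% in control iHP and 75.9% and 83.3% in labelled iHPs, and 23.4% in control iBEC and 41.8% and 55.6% in labelled iBECs. *Tead2* made up 39.3% and 4.68% in iHBs, 19.9%, 4.48% and 7.39% in iHPs, and 37.9%, 19.9% and 19.1% in iBECs. In 5 of 5 labelled libraries the first share was higher and the second lower than in the control, which the choice of these genes fixes in part. The share of *Tead3* was also lower in 5 of 5. The leading TEAD gene was *Tead2* in control iHB and *Tead4* in labelled iHB, *Tead3* in control iHP and *Tead4* or *Tead1* in labelled iHPs, and *Tead3* in control iBEC and *Tead3* or *Tead1* in labelled iBECs.

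**Figure D4:**
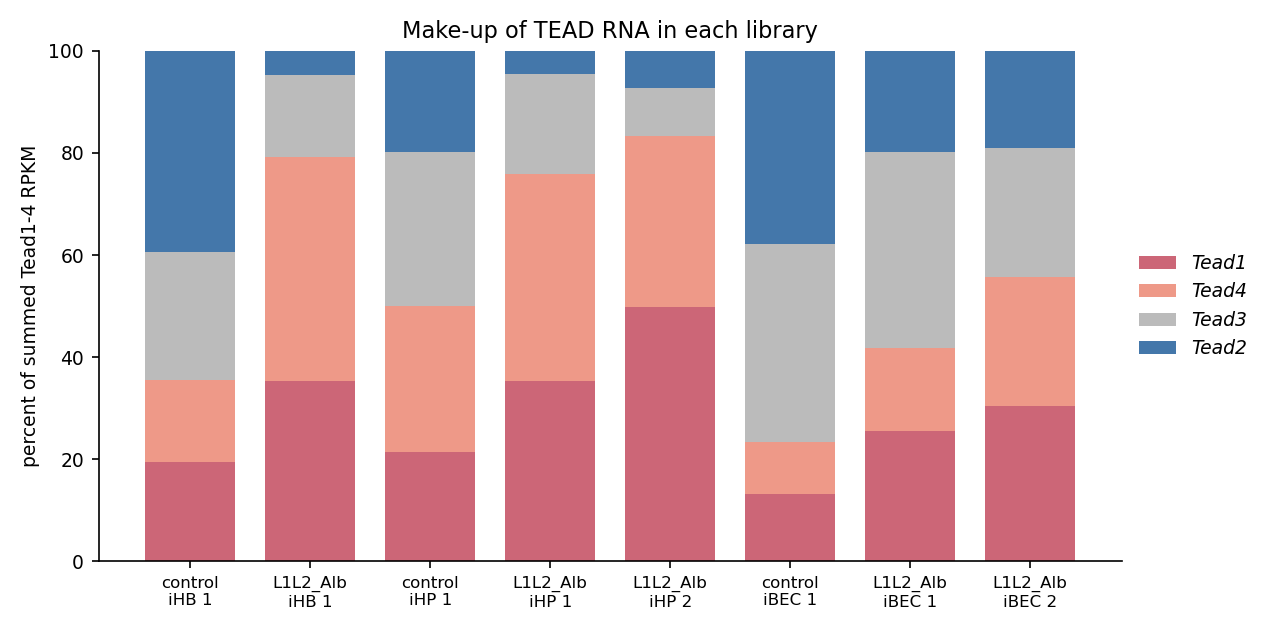
Share of each TEAD gene in the summed RPKM of *Tead1* to *Tead4* (y axis, percent) in each of the 8 libraries (x axis, 1 bar per library). The *Tead1* and *Tead4* segments together take 35.5% in control iHB and 79.1% in labelled iHB, and the *Tead2* segment takes 39.3% and 4.68%.

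The VGLL cofactors showed no change with the genotype label that passed the test. *Vgll4*, which competes with YAP for TEAD factors, was at 22.4 RPKM in control iHBs and 20.7 RPKM in labelled iHB, 14.6 RPKM in control iHP and 17.6 and 20.0 RPKM in labelled iHPs, and 14.6 RPKM in control iBEC and 12.6 and 14.9 RPKM in labelled iBECs. Labelled libraries lay on both sides of their controls. The log2 difference was 0.06 (limma, 95% interval from -0.34 to 0.47, adjusted p = 0.860, higher in 3 of 5), and its sign turned under 3 settings. Relative to the sum of *Yap1* and *Wwtr1*, *Vgll4* was at 0.461 and 0.319 in iHBs, 0.335, 0.269 and 0.353 in iHPs, and 0.440, 0.322 and 0.361 in iBECs, lower in 4 of 5 labelled libraries.

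*Vgll3*, a cofactor of TEAD factors known from mesenchymal and muscle cells, was at 7.92 RPKM in control iHBs and 11.1 RPKM in labelled iHB. It was at 7.22 RPKM in control iHP and 4.40 and 8.75 RPKM in labelled iHPs, and at 5.80 RPKM in control iBEC and 10.3 and 6.46 RPKM in labelled iBECs. The labelled iHPs fell on either side of the control, and labelled iHP replicate 1 was the lowest of all. The log2 difference was 0.21 with a 95% interval from -0.41 to 0.84 (limma, adjusted p = 0.683, higher in 4 of 5).

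In all, 3 of 8 effector genes were called higher with the L1L2_Alb label and 0 lower, where 9.57% of all tested genes were called in either direction and 6.2% higher. Over all genes 832 were called higher and 452 lower, and this balance depended on the scaling, with 586 higher and 607 lower after upper-quartile scaling and 687 and 607 after quantile normalization, while the 3 effector genes stayed called under both. The median log2 difference of the 8 effector genes was 0.19 against 0.06 over all tested genes. All 5 labelled libraries lay on 1 side of their controls for 5 of the 8 genes (*Yap1*, *Wwtr1*, *Tead1* and *Tead4* higher, *Tead2* lower), and for 33% of all tested genes, which is a count without a test.

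The 3 stages were then compared, with the genotype label held in the fit. From iHB to iHP, 0 of 8 effector genes passed in limma and 0 had an unadjusted p under 0.05, and among all genes 0% were called, with 1158 at an unadjusted p under 0.05. *Wwtr1* had a log2 difference of -0.38 and *Yap1* of 0.12 in this comparison. With 1 control library per stage, this fit has 4 residual degrees of freedom, and the intervals were wide (from -0.84 to 0.09 for *Wwtr1* and from -0.33 to 0.58 for *Yap1*).

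In iBECs, *Wwtr1* and *Tead4* were lower. Against iHBs, *Wwtr1* fell by 1.08 on the log2 scale (SE 0.202, limma, adjusted p = 0.0205) and *Tead4* fell by 1.19 (SE 0.238, limma, adjusted p = 0.0269). The control and labelled values above show the same order, since control iBEC was the lowest of the 8 libraries for both genes. These were 2 of 8 effector genes, both lower, where 5.72% of all genes were called in either direction and 2.78% lower. *Tead1* (log2 difference -0.80, adjusted p = 0.163 in limma) and *Vgll4* (-0.60, adjusted p = 0.151 in limma) had negative differences that did not pass. The *Wwtr1* call was lost in 3 of 12 settings (adjusted p from 0.0128 to 0.0632) and the *Tead4* call in 4 of 12 (0.0214 to 0.0789). Neither gene was called without L1L2_Alb iBEC replicate 1 (log2 differences -1.05 and -1.12) or with upper-quartile scaling (-0.83 and -0.95). The median of the 8 genes was -0.48, against -0.25 over all genes.

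Against iHPs, *Tead4* fell by 1.27 on the log2 scale in iBECs (SE 0.211, limma, adjusted p = 0.0192), as the only 1 of 8 effector genes, where 4.12% of all genes were called and 1.67% lower. *Wwtr1* had a log2 difference of -0.71 (adjusted p = 0.0692 in limma) and *Tead1* of -0.88 (adjusted p = 0.110 in limma). *Tead2* had a positive difference of 0.97 with a 95% interval from -0.04 to 1.98, and it was higher in iBECs than in iHPs under both labels. The mesenchymal marker sums given above were higher in labelled iBECs than in labelled iHPs but lower in control iBEC (2701 RPKM) than in control iHP (2969 RPKM). The *Tead4* call was lost without L1L2_Alb iHP replicate 1 (adjusted p = 0.0535 in limma) and without L1L2_Alb iBEC replicate 1 (adjusted p = 0.0744 in limma).

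Within the libraries labelled L1L2_Alb, 2 iBEC and 2 iHP libraries could be compared. None of the 8 effector genes was called in limma (0 of 8, where 3.67% of all genes were called), and 4 had an unadjusted p under 0.05. *Tead4* had the log2 difference -1.12 (adjusted p = 0.0965 in limma) and *Tead2* 1.18 (adjusted p = 0.149 in limma). *Wwtr1* and *Tead1* were at -0.67 and -0.88. The median of the 8 genes was -0.47, against -0.01 over all genes.

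The effector genes were then set in order by their level per length. *Yap1* was highest, at 28.5 ± 4.79 RPKM (SD, n = 8 libraries of all conditions), followed by *Wwtr1* (20.5 ± 8.21), *Vgll4* (17.2 ± 3.52), *Tead1* (15.4 ± 8.94), *Tead4* (14.0 ± 7.47), *Tead3* (12.1 ± 4.01), *Vgll3* (7.75 ± 2.26) and *Tead2* (9.16 ± 6.78), ranked by their geometric mean. The SD holds the differences between conditions as well as those between libraries. The order was not the same in each library. *Yap1* was first in 6 of 8 libraries and second to *Wwtr1* in labelled iHB and to *Tead1* in labelled iHP replicate 2. *Tead2* ranked 2 in control iHB and 8 in labelled iHB, and *Tead1* ranked 7 in control iBEC and 1 in labelled iHP replicate 2. The highest library was 1.56-fold above the lowest for *Yap1* and 10.3-fold for *Tead2*.

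Of the 28 pairs of genes, 11 differed in an exact sign-flip permutation test over the 8 libraries after Benjamini-Hochberg adjustment, and every pair with *Yap1* was among them. None of the 28 passed when any 1 stage was left out, where 5 or 6 libraries allow no exact permutation p under 0.0625 or 0.0312. None passed either when the median log2 ratio was tested in place of the mean, which was fixed by the design. Flipping the signs of the smallest ratios leaves the median unchanged, so that test allows no p under 0.05 with 8 libraries. *Yap1* exceeded *Wwtr1* by 1.48-fold on average and in 7 of 8 libraries (exact permutation p = 0.0156, adjusted p = 0.0398). No other neighbours in the order differed, with adjusted exact permutation p-values of 0.333 for *Wwtr1* and *Vgll4*, 0.298 for *Vgll4* and *Tead1*, 0.35 for *Tead1* and *Tead4*, 0.938 for *Tead4* and *Tead3*, 0.0729 for *Tead3* and *Vgll3*, and 0.907 for *Vgll3* and *Tead2*. The test treats the 8 libraries as separate, although some share a condition. Only *Tead2*, *Vgll3* and *Vgll4* were at whole reads of 1 gene length. For the other 5 genes the deposited value cannot be traced to 1 length, so their place in the order depends on how the authors combined gene models, whereas comparisons of 1 gene between libraries do not depend on the length as long as it was the same for all libraries.

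Other genes of the pathway were counted from lists. Of 20 target genes of YAP/TAZ and TEAD tested, 12 rose with the L1L2_Alb label and 0 fell, with a median log2 difference of 1.10. This list holds *Tgfb2*, whose higher RNA in cells lacking *Lats1* and *Lats2* the paper reported. The lists were chosen with earlier results of these data known, so this count is not independent of them. *Crim1*, a transmembrane protein that binds BMPs, rose by 2.12 (limma, adjusted p = 0.00118), the matricellular gene *Cyr61* by 1.93 (limma, adjusted p = 0.00222) and the stress response gene *Gadd45b* by 1.84 (limma, adjusted p = 0.00445). Of 12 upstream scaffolds and regulators of YAP and TAZ, 7 rose and 0 fell, with a median of 1.00. Among the 7 were the angiomotin genes *Amotl1* (1.51, adjusted p = 0.00225 in limma) and *Amotl2* (1.49, adjusted p = 0.0223 in limma) and the phosphatase gene *Ptpn14* (1.28, adjusted p = 0.0248 in limma). *Amotl2*, *Ptpn14*, *Ajuba* and *Lats2* stand in 2 lists each.

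Of 13 kinases and adaptors tested, 1 rose (*Lats2*) and 0 fell, with a median log2 difference of 0.37. Of 10 phosphatase and degradation genes, 1 rose (*Csnk1e*, the casein kinase 1 epsilon gene, by 0.92, limma, adjusted p = 0.0132) and 0 fell, with a median of 0.28. Of 11 tested cofactors and chromatin partners of TEAD or YAP/TAZ, 0 rose and 0 fell in limma, with a median of -0.06. The counts of these lists are descriptions, to be read against the 9.57% of all genes called in this comparison, and the difference between lists was not tested. Of 9 hepatocyte markers 0 rose and 5 fell (median -1.53), and of 8 biliary markers 2 rose and 1 fell. Of 8 macrophage and 3 endothelial markers tested 0 passed in limma, and of 2 erythroid markers 1 fell. In iHBs, 7 of 9 hepatocyte markers were lower in the labelled library than in the control, with *Alb* at 524 against 2485 RPKM, while *Apoa1* was at 8670 against 2451 RPKM and *Afp* at 3959 against 3687 RPKM. The part of the cell make-up in the effector results was not tested.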

How the data were processed

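RNA of 8 mouse libraries was sequenced from TruSeq RNA v2 libraries on Illumina equipment. The submitters' processing notes name Bowtie 0.12.2 and the build mm8, and the counting method and annotation are not given in the sources used here. The authors deposited 1 table with a value per gene and library. These deposited values are RPKM, a unit inferred from short RNA genes whose values were whole multiples of 1 read (tolerance 0.01 reads), which also gave the library sizes (18436865 to 33229075 reads). Whether a further scaling between libraries was applied cannot be told from this check. A factor per library would be taken up in the recovered library size. Of 23471 entries, 4 entries of 2 repeated symbols were left out. Whole reads could be traced for *Tead2* (88 to 1393 reads), *Vgll3* (270 to 1059) and *Vgll4* (420 to 824).

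Values were changed to log2(RPKM + 1), and the 13421 genes averaging 1 RPKM or more entered a model in limma 3.58.1 (R 4.3.3, stage and genotype label, eBayes with trend, 4 residual degrees of freedom). All p-values of limma are two-sided and adjusted by the Benjamini-Hochberg method over all tested genes, with a threshold of 0.05. The pseudocount understates changes of low genes. Differences between stages in the genotype effect, and iBECs against iHPs within L1L2_Alb, came from a fit of the 6 conditions. Within a stage, each L1L2_Alb library was set against 1 control without a test. The ratio of *Wwtr1* to *Yap1* was tested by exact permutation of labels within stages, and pairs of genes by exact sign flips (scipy 1.17.1). All 8 effector genes and at most 3 called genes per pathway list with the largest change were named. For each effector, the 3 genes with the highest correlation over the libraries were also named. The members and lists were chosen with earlier results of these data known. The fit was tested on simulated data.

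The alternatives for the genotype effect were a pseudocount of 0.1, upper-quartile scaling, quantile normalization, no filter, a minimum mean of 5 RPKM, no trend, omission of single L1L2_Alb libraries where there were 2 or of single stages, and a replicate block. A count model was not run, since whole reads were not recovered for the other 5 genes. Positions are those of the RefSeq promoter table (GRCm38.p6) and none were taken from the files. Proteins were not used here.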

Additional observations from a re-analysis of the deposited data

Results flagged for a closer look

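*Vgll4* was at opposite sides of its control in 2 stages. The log2 difference was -0.11 in the iHB library labelled L1L2_Alb and 0.26 and 0.43 in the labelled iHP libraries, and it drew attention because every library of 1 stage moved one way and every library of the other stage the opposite way. The contrast of these 2 stages alone was not tested, and the test over all 3 stages gave an adjusted p of 1.00 (limma, moderated F). With 1 labelled iHB library and 1 control per stage, such a split takes only 3 values.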

How the results depend on the processing

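Of the 14 settings for the genotype effect, the direction stayed for 7 of 8 effector genes. *Vgll4* turned to -0.013 with upper-quartile scaling, -0.025 with quantile normalization and -0.10 without iHPs. *Wwtr1* kept its direction but not its call without iHBs, iHPs or iBECs (log2 difference 0.65, 0.74 and 0.67, adjusted p = 0.170, 0.138 and 0.139 in limma), with the replicate block (0.68, adjusted p = 0.0503 in limma), and without L1L2_Alb iHP replicate 1 or either iBEC replicate (leaving out single libraries gave 0.65 to 0.73). *Tead1* lost the call without a filter (1.15), without iHBs, iHPs or iBECs (1.32, 1.05 and 1.04) and without iBEC replicate 2 (0.99 to 1.27 over single libraries left out), and *Tead4* without iHBs, iHPs or iBECs (0.97, 1.21 and 0.96). The count of effector genes called was 0 without iHBs, 0 without iHPs and 0 without iBECs, and 1 to 3 without single libraries, with the 1 reached without iBEC replicate 2. Over all genes it went from 1284 to 686 without a filter, 326 without iHBs, 132 without iHPs, 1396 without iBECs (523 higher and 873 lower) and 793 to 1227 without single libraries. For iBECs against iHBs the 2 calls became 0 with upper-quartile scaling, 1 with quantile normalization, 1 without a filter and 0 to 2 without single libraries, and for iBECs against iHPs the 1 call became 0 to 2. Without L1L2_Alb iHP replicate 2, *Wwtr1* was also called there (-0.80, adjusted p = 0.0418 in limma). Among stage differences that were not called, quantile normalization turned *Yap1* to 0.016 in iBECs against iHBs and *Tead3* to 0.016 in iHPs against iHBs, and without single libraries *Tead1* ranged from -0.17 to 0.28 and *Tead3* from -0.27 to 0.0041 in iHPs against iHBs, and *Vgll3* from -0.17 to 0.30 in iBECs against iHPs. Of 28 pairs of genes, 0 passed by the median log2 ratio. That count was fixed by the design, because the median test allows no p under 0.05 with 8 libraries. Without iHBs, iHPs or iBECs 0, 0 and 0 pairs passed, where the smallest adjusted exact permutation p was 0.0795, 0.175 and 0.146. There the 6, 5 and 5 libraries allow no unadjusted p under 0.0312, 0.0625 and 0.0625, so that the 5-library counts were fixed by the design. For changed calls the cause was not tested unless stated. The test for a difference between stages gave 0 calls also with a pseudocount of 0.1, upper-quartile scaling and quantile normalization, which were chosen after seeing the data. The deviations of same-numbered libraries had a correlation of -0.022 over 13421 genes. This value cannot decide whether those libraries share an embryo or culture, since differences particular to a stage could hide it. Among the effector genes the replicate block changed no call other than that of *Wwtr1* (over all genes 1154 were called with it). Limits are 1 control library per stage, few degrees of freedom, unknown origin of the paired libraries, and a unit and gene lengths that the sources used here do not give.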

Other observations

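The other VGLL genes were near absent. *Vgll1* was listed at 0 in 7 of 8 libraries and at 0.141 RPKM in L1L2_Alb iBEC replicate 2, and *Vgll2* was at 0 in 6 libraries and at 0.0791 and 0.0858 RPKM in the L1L2_Alb iBECs. Neither entered the tests.

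Genes whose levels varied most alike over the 8 libraries were searched among all tested genes by Pearson correlation, as a description without a test. The libraries share conditions, and the highest of 13421 coefficients is high by its choice. *Wwtr1* was most like *Iqgap1* (Pearson's r = 0.995), *Asap3* (0.992) and *Tmem248* (0.991). *Tead4* was most like *Wwc1* (0.990), *Sptbn1* (0.987) and *Rab11fip1* (0.983), and *Wwc1*, the gene of the scaffold KIBRA that activates LATS kinases, was itself higher with the L1L2_Alb label (log2 difference 1.04, limma, adjusted p = 0.0124). *Tead1* was most like *Zc2hc1a* (0.996), *Nek9* (0.988) and *Stx11* (0.986). *Tead2* was most like *Lair1* (0.975), a receptor gene of leukocytes, *Deptor* (0.972), an mTOR inhibitor, and *Gtf2i* (0.970), and *Tead3* like *Fgfr1* (0.970), *Usp40* (0.956) and *Atp10d* (0.955). *Yap1* was most like *Edem3* (0.977), *Fyttd1* (0.975) and *Gk5* (0.974), *Vgll3* like *Ctsf* (0.942), *Mrpl4* (0.932) and *Ndufb10* (0.931), and *Vgll4* like *Thap11* (0.926), *Fhit* (0.925) and *Tm9sf1* (0.925).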
